A study of Homo sapiens with 4 samples.

Results

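The transcriptome of untreated OMM2.3 cells was described from the control library, taking the genes listed at 1 FPKM or more (reads per unit of exon length, adjusted for library size, so that levels of different genes can be set side by side). That rule held 12282 of the 58735 genes in the table, and 10520 of them were protein-coding. OMM2.3 is an established human line that was grown out from a liver metastasis of a uveal melanoma. The labels give the cells as ocular melanoma of the uveal region, grown with fetal bovine serum and antibiotics and labelled as control. The labels do not say how the control was handled. The study had 4 libraries, 1 for each treatment, and the libraries given CCCP, DHA or both were not used. There was no replicate, so no spread between cultures could be measured, and the intervals below are exact 95% Poisson intervals of the recovered reads, which cover counting error only.

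Uveal melanoma arises from melanocytes of the eye, cells of neural crest origin that make pigment under the transcription factors MITF and SOX10. Melanoma lines can differ widely in how much of this pigment program they keep. The cells sit on and shape their surroundings through integrins, collagens, proteases and secreted growth factors, and they burn glucose and other fuels through enzymes that exist as several isoforms with different tissue use.

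The MITF gene and some melanosome genes were listed, while the pigment enzymes lay at or near 0. Whether MITF acts on these melanosome genes in this line was not tested. MITF, the lineage regulator (ENSG00000187098, chromosome 3, 69739435 to 69968337 on GRCh38), stood at 8.81 FPKM (8.32 to 9.31). That value is for the whole gene, so transcripts from different starts of MITF could not be told apart. GPNMB, a melanosome and lysosome glycoprotein, stood at 34.9 FPKM (33.8 to 35.97), and GPR143, a receptor of the melanosome membrane, at 16.5 FPKM (15.3 to 17.7). TYR, the enzyme that starts pigment synthesis, had 0 reads, which allowed up to 0.0511 FPKM (3 reads). TYRP1, a second pigment enzyme, had 3 reads and lay at 0.0412 FPKM (0.00850 to 0.120). The stretch from 250 bases before to 50 bases after the RefSeq start (GRCh38.p14) is shown for these 4 genes, because MITF is known to bind the M-box and they differ in level. Capitals mark the letters TCATGTG or, read on the other strand, CACATGA. The windows are printed 5′ to 3′ on the gene's strand, at chr7:23246525-23246824 (plus strand) for GPNMB, chrX:9765798-9766097 (minus strand) for GPR143, chr11:89177625-89177924 (plus strand) for TYR and chr9:12693135-12693434 (plus strand) for TYRP1.
GPNMB: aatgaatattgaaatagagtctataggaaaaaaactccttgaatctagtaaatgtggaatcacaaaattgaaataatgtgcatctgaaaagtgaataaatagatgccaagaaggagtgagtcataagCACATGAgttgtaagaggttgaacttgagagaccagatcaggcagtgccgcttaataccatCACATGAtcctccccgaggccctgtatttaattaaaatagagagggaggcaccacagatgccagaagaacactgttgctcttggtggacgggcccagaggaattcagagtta
GPR143: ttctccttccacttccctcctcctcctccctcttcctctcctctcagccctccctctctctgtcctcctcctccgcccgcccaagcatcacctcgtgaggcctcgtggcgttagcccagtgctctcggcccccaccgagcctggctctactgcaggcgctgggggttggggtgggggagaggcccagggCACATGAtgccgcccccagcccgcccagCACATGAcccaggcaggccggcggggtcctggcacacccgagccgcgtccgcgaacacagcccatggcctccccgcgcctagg
TYR: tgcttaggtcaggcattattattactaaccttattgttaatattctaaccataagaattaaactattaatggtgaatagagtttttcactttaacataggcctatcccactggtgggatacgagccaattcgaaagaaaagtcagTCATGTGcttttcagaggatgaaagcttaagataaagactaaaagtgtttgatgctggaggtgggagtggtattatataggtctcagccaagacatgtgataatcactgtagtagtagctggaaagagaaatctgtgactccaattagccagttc
TYRP1: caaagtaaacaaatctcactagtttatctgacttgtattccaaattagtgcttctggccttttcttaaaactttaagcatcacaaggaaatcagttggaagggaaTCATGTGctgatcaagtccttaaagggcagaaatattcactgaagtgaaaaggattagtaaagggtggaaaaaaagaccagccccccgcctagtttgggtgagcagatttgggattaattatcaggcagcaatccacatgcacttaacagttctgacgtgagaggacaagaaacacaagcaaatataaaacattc
The letters stood at -123 and -62 from the start in GPNMB, at -61 and -33 in GPR143, at -105 in TYR and at -145 in TYRP1. Of 14875 windows of protein-coding genes, 340 (2.29%) held these letters, and 11 held them more than once. A window was at hand for 20 of the 26 melanocyte list members, too few for a check over the list. In 14 of the 20 the letters were not found, among them MITF and RAB27A, which were listed. PMEL and RAB38, also listed, had no window. The printed genes were chosen with their levels known, so the number of matches cannot be set against level. The letters were also in the windows of SLC24A5, at -15, and TFAP2B, at 14 bases after the start, which lay at 0.0108 FPKM and 0 reads. A match is a run of letters and was not tested as a binding site.

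Of all 19951 protein-coding genes, 52.7% lay at 1 FPKM or more, with a median of 6.65 FPKM among those, and 5558 had 0 reads. These are the values beside which the lists below are read. At the lower edge, 20 protein-coding genes lay within 0.01 above 1 FPKM and 8 within 0.01 below it, with the closest at 1.0006 and 0.99953. The library held 18937286 reads over genes. A protein-coding gene of median exon length needed 82.0 reads to reach 1 FPKM, and 3 reads stood for a median of 0.0366 FPKM. No protein-coding gene at 1 FPKM or more rested on fewer than 10 reads, while 365 of the 1762 other genes did.

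Low values were common among genes that shared most of their exon bases with other genes. Of 525 protein-coding genes with 90% or more of their exon bases inside exons of another gene, 0 lay at 1 FPKM or more and 86.7% had 0 reads. Of 608 genes with 50 to 90% shared, 17.6% lay at 1 FPKM or more, against 48.5% of the 11097 genes with none shared. Smaller overlaps went the other way. With 20 to 50% shared 56.0% of 1440 genes lay at 1 FPKM or more, and with above 0 and under 20% shared 67.2% of 6281 did. The elongation factor gene EEF1G, needed by every cell, had 0 reads and shared 99.9% of its exon bases. The aldolase gene ALDOA stood at 4.04 FPKM with 53.5% shared, and the ribosomal protein gene RPS10 at 0.719 FPKM with 39.4% shared. How the counting treated reads in shared bases is not stated in the labels or headers, and its part in these values was not tested. A low value of such a gene therefore cannot be read as a low level. The shared percentage is printed for many of these genes, though not for every gene named. Among the list members, 50 shared 50% or more, and 9 of those lay at 1 FPKM or more.

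A small number of genes carried much of the summed level. The 10 highest genes held 17.9% of all FPKM, the highest 100 held 38.5% and the highest 1000 held 65.8%. The 13 mRNAs made in the mitochondrion were led by MT-CO1, a subunit of cytochrome c oxidase, at 9076 FPKM. Mitochondrial genes together held 18.97% of summed FPKM, on 4.80% of the reads over genes. Outside the mitochondrion the highest were ACTG1 (cytoplasmic actin) at 3709 FPKM, TMSB10 (an actin-monomer binding thymosin) at 3687 and FTL (the ferritin light chain, which stores iron) at 3199. ACTG1 and ACTB, at 1321 FPKM, have near-identical coding sequences, so how reads were divided between them is uncertain. EEF1A1, the translation elongation factor, stood at 2081 FPKM, GAPDH of glycolysis at 1516 and MT2A, a metal-binding metallothionein, at 1452. Genes of the cell's shape and its iron store thus stood among those of translation and glycolysis.

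The lineage lists were read next, to check the label against markers. Of 26 melanocyte lineage genes, 6 lay at 1 FPKM or more, 11 had 0 reads and 9 lay in between. Beside MITF, GPNMB and GPR143, these were RAB38 at 10.6 FPKM and RAB27A at 9.34, both GTPases of melanosome traffic, and PMEL, the fibril protein of the melanosome, at 1.501 (1.24 to 1.80). SOX10, the neural crest regulator, had 5 reads, which is 0.0692 FPKM (0.0225 to 0.162). DCT, a further pigment enzyme, had 2 reads, which is 0.0136 FPKM. MLANA, a melanosome antigen, lay at 0.217 FPKM and the melanocortin receptor gene MC1R at 0.240, with 44.5% of its exon bases shared. The genes at 0 reads were TYR, OCA2, SLC45A2 and TRPM1 of pigment and melanocyte ion transport, PAX3 and TFAP2B of the neural crest, the receptors KIT and EDNRB, and S100B, CDH19 and CAPN3. For these 11, 3 reads stood for 0.0194 to 0.106 FPKM, and CAPN3 shared 57.1% of its exon bases. The pigment enzyme genes TYR, TYRP1 and DCT thus lay at or near 0, while MITF and the melanosome genes GPNMB, GPR143 and PMEL were listed. In a library of pooled cells, fewer cells of a kind and less RNA per cell cannot be told apart.

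Markers of other cell types were listed unevenly. In the mesenchyme list 19 of 36 members lay at 1 FPKM or more (52.8%, near the 52.7% of all protein-coding genes). VIM (vimentin) led it at 854 FPKM (848 to 860). VIM was followed by LOX, a collagen crosslinking enzyme, at 246, SPARC, a matrix glycoprotein, at 211, and NT5E (CD73, which makes adenosine) at 211. Fibroblast genes of the same list went both ways. FN1, COL1A1, COL6A1 and TWIST1 lay at 1 FPKM or more, while 9 members lay above 0 and under 1 FPKM and 8 had 0 reads. COL3A1, a chain of type III collagen, lay at 0.0453 FPKM, and LUM, FBLN1 and THY1 had 0 reads. Of 20 smooth muscle and pericyte genes 10 lay at 1 FPKM or more (50%), with TPM1 at 125 FPKM and TPM2 at 109 (tropomyosins). ACTA2, smooth muscle actin, stood at 1.81 with 30.1% of its exon bases shared.

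Epithelial markers split in a similar way. KRT8 and KRT18, the keratin pair of simple epithelia, stood at 195 FPKM (192 to 197) and 180 (176 to 183). EPCAM, ESRP1 and GRHL2, an adhesion molecule, a splicing regulator and a transcription factor of epithelia, had 0 reads. CDH1 (E-cadherin) lay at 0.183 FPKM (0.115 to 0.277), against 66.2 (64.6 to 67.9) for CDH2 (N-cadherin). Of 27 simple epithelium genes 7 lay at 1 FPKM or more, and of 26 squamous epithelium genes 8 did, led by PERP, a desmosome protein, at 30.3 FPKM. KRT5, KRT14 and KRT17 of squamous epithelium had 0 reads.

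Blood, vessel and liver markers were scarce. Of 23 leukocyte genes 1 lay at 1 FPKM or more, the growth factor receptor gene CSF1R at 1.25 FPKM, and 15 had 0 reads. Of 19 endothelial genes 2 did, EGFL7 at 4.27 and ROBO4 at 2.37, and CDH5 (VE-cadherin) had 0 reads. Of 26 hepatocyte and bile duct genes 3 did, and ALB (albumin) had 0 reads. SOX9, a factor of bile duct, cartilage and neural crest, led that list at 28.1 FPKM (26.9 to 29.3). In the kidney and mesothelium list 4 of 21 lay at 1 FPKM or more, led by PODXL (podocalyxin) at 102.

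Of the retinal pigment epithelium and neural list 7 of 28 genes lay at 1 FPKM or more. SIX3, a transcription factor of the forebrain and eye field (chromosome 2, 44941898 to 44946077), stood at 25.1 FPKM (23.7 to 26.5), OTX2 at 9.80 (9.04 to 10.6) and PAX6 at 3.16 (2.99 to 3.33). RPE65, RAX and CRX, markers of retinal pigment epithelium and retina, had 0 reads. Of 25 genes known in uveal melanoma 19 lay at 1 FPKM or more (76.0%, beside 52.7% of all protein-coding genes). These were not chosen as markers of a cell type, so their count was no check of the label. PLCB4, a phospholipase downstream of Gq, stood at 93.7 FPKM, GNAQ (its G protein) at 16.5, BAP1, a deubiquitinase and tumour suppressor, at 13.9, and GNA11 at 10.3. PRAME, CYSLTR2 and HTR2B had 0 reads, and HTR2B shared 24.9% of its exon bases. No cancer-testis antigen of 67 reached 1 FPKM, and 66 had 0 reads. For these 66, 3 reads stood for 0.0361 to 1.32 FPKM, and many have near-identical copies, which makes their zeros uncertain. The line is called OMM2.3 throughout, since its markers gave no single cell type.

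**Figure D1:**
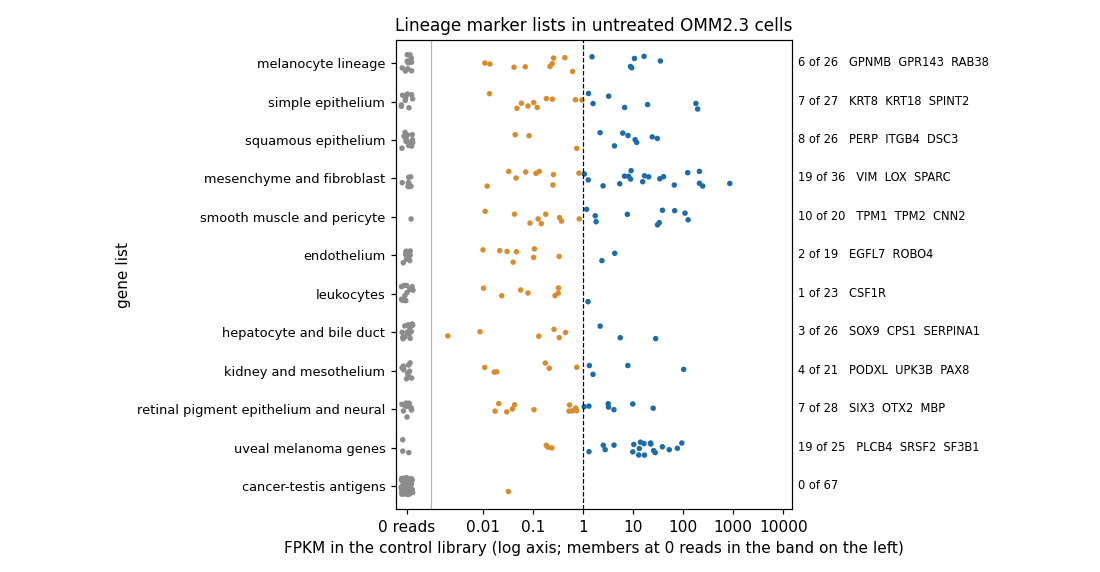
Level of each member of 12 lineage lists in the control library, 1 point per gene, in FPKM on a log axis; blue points lie at 1 FPKM or more (dashed line), orange points below it, and grey points in the band on the left had 0 reads. Beside each list stand the number at 1 FPKM or more and up to 3 of the highest of these. The mesenchyme list has 19 of 36 members right of the line (52.8%, near the 52.7% of all protein-coding genes) and the melanocyte list 6 of 26 (23.1%). Of 67 cancer-testis antigens 66 had 0 reads.

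In the receptor lists 161 of 410 members lay at 1 FPKM or more (39.3%), with a median of 4.59 FPKM. Over all protein-coding genes these values were 52.7% and 6.65. The lists also hold some ligands, among them Notch ligands and ephrins. Receptor tyrosine kinases, which pass growth signals through phosphorylation, had 25 of 58. AXL, the receptor for GAS6 (ENSG00000167601, chromosome 19, 41219203 to 41261766), led all receptor lists at 377 FPKM (373 to 381). The ephrin receptor EPHA2 followed at 75.1 FPKM (73.2 to 77.0), the hepatocyte growth factor receptor MET at 46.1 (44.9 to 47.2) and EGFR at 33.1 (32.4 to 33.9). AXL is part of a trio, and its relatives were low. TYRO3 stood at 2.90 FPKM and MERTK had 1 read. The ligand GAS6 stood at 174 FPKM (171 to 176) and PROS1, the other ligand of the trio, at 11.9. HGF, the ligand of MET, had 0 reads. KITLG, the ligand of KIT, stood at 4.37 FPKM, and KIT itself had 0 reads.

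Of 51 interleukin and interferon receptor genes 16 lay at 1 FPKM or more (31.4%). IL7R, the interleukin 7 receptor, stood at 26.9 FPKM (25.9 to 27.8), IL6ST (gp130, shared by the interleukin 6 family) at 22.6 (21.9 to 23.3) and OSMR (the oncostatin M receptor) at 13.01. LIFR, which pairs with gp130 to bind LIF, had 3 reads (0.0130 FPKM). Its ligand LIF stood at 48.1 FPKM (46.6 to 49.7). IL11 stood at 16.1 and its receptor gene IL11RA at 0.722 (0.551 to 0.929), with 17.7% of its exon bases shared. IFNAR2, a chain of the type I interferon receptor, lay at 0.156 FPKM with 83.3% of its exon bases shared, so its value cannot be read. Of 29 TNF receptor genes 13 lay at 1 FPKM or more, led by TNFRSF12A (the TWEAK receptor) at 52.2 and TNFRSF1A (the main TNF receptor) at 41.2. CD40 and TNFRSF1B had 0 reads.

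In the 2 lists of G protein-coupled receptors for lipids, nucleotides and proteases and for peptides and amines, 2 genes stood apart by level. F2R, the thrombin receptor PAR1, stood at 102 FPKM (100 to 105), and OXTR, the oxytocin receptor, at 36.2 (35.0 to 37.5). The next of their lists were F2RL2, another thrombin receptor, at 15.7 and HRH1, a histamine receptor, at 2.59. Of 23 chemokine receptors 2 lay at 1 FPKM or more, ACKR3 (an atypical receptor of CXCL12) at 14.02 and CCRL2 at 4.35, and CXCR4 lay at 0.185. Wnt, Notch and Hedgehog receptors, counted with the Notch ligands, were widely listed, 21 of 33, with FZD2 at 54.6 FPKM and NOTCH2 at 41.9. Of the guidance receptors and ephrins 18 of 29 lay at 1 FPKM or more, led by PLXNB2, a semaphorin receptor, at 91.4. Of 48 nuclear receptors 22 did. NR2F1 (COUP-TF1, a factor of neural crest and eye) led them at 62.3 FPKM (60.6 to 64.0), and its relative NR2F2 stood at 21.8.

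The secreted factor lists had 155 of 479 members at 1 FPKM or more (32.4%), with a median of 9.48 FPKM. They also hold some receptors, membrane proteins such as CD46, S100 proteins and annexins, so the count is not of secreted factors alone. IGFBP3, which binds insulin-like growth factors, stood at 619 FPKM (614 to 624), and the matricellular CYR61 (CCN1) at 548. Its relative CTGF (CCN2) stood at 281. The growth factors IGF1 and IGF2 had 0 reads, with 82.4% and 75.0% of exon bases shared, so these zeros cannot be read. F3, tissue factor, which starts coagulation, stood at 354 FPKM (349 to 359). PLAUR, the urokinase receptor, stood at 27.6 and urokinase itself, PLAU, at 0.749 on 43 reads, with 31.1% shared. FSTL1, a follistatin-like glycoprotein, stood at 245 and TGFB1 at 85.9. The Wnt antagonist DKK1 and its family member DKK3 stood at 123 FPKM (120 to 126) and 94.8, above WNT5B, the highest of the Wnt ligands, at 4.34.

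Of 22 fibroblast growth factors 3 lay at 1 FPKM or more. FGF5 stood at 82.1 FPKM (80.5 to 83.8), FGF2 at 51.1 and FGF1 at 1.77. Of 53 interleukins and colony-stimulating factors 10 did, with IL18 at 36.8 beside LIF and IL11. Of 46 chemokines 3 did, and CXCL8 led at 14.5 FPKM (13.4 to 15.7). The chemokine-like MIF lay at 0.324 with 62.0% shared and cannot be read. Of the guidance cues 16 of 29 lay at 1 FPKM or more (55.2%, near the 52.7% of all protein-coding genes), with SEMA3C at 61.3 and SEMA7A at 55.3. Among calcium-binding proteins S100A6 stood at 530 FPKM and ANXA2 at 241. The complement shields CD46, CD59 and CD55 stood at 34.5, 34.4 and 25.9 FPKM, above C3, the central complement protein, at 12.5.

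**Figure D2:**
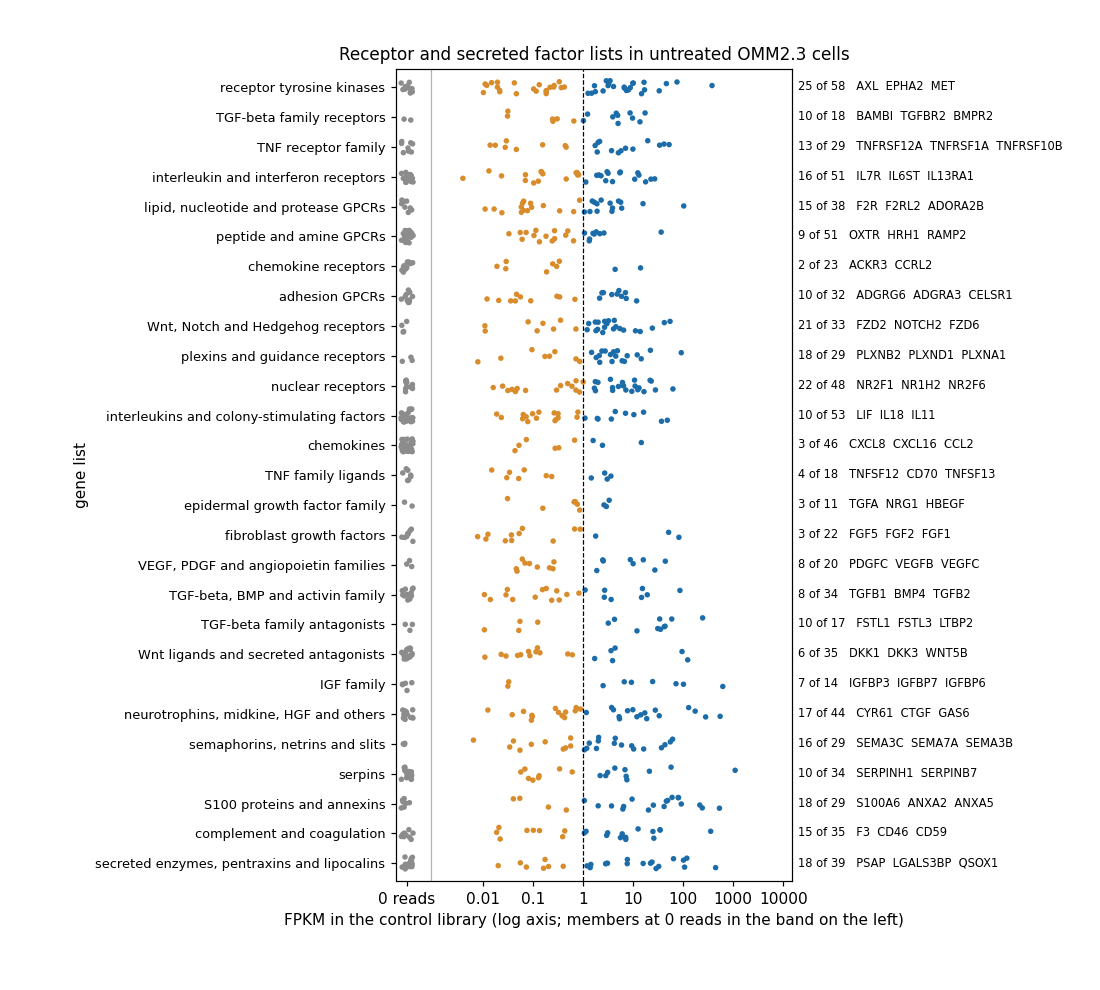
Level of each member of 11 receptor and 16 secreted factor lists in the control library, 1 point per gene, in FPKM on a log axis, with colours and the dashed line at 1 FPKM as for the lineage lists and grey points at 0 reads. AXL at 377 FPKM lies right of every other receptor, and among the secreted factors IGFBP3 lies at 619 FPKM.

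Adhesion and matrix genes numbered 186 of 423 at 1 FPKM or more (44.0%), and those had a median of 16.6 FPKM beside 6.65 over all protein-coding genes. Integrins pair an alpha with a beta chain to bind matrix, and 14 of 26 were listed. ITGB1, the most widely shared beta chain, stood at 365 FPKM (362 to 368), ITGA3, a laminin receptor chain, at 220 (218 to 222), ITGB5 at 165 (163 to 167) and ITGA5, a fibronectin receptor chain, at 73.7. The leukocyte chains ITGAL, ITGAM and ITGAX had 0 reads. Of 30 cadherins and catenins 8 lay at 1 FPKM or more, and CDH2 led them. Desmosome and hemidesmosome genes had 12 of 19, with DSG2 at 40.2 and DSP (desmoplakin) at 16.2. Of 24 gap junction genes 5 did, led by GJA1 (connexin 43) at 53.9 FPKM. BSG (basigin) at 180, CD63 at 145, PVR (the poliovirus receptor) at 123 and ALCAM at 96.5 led the other adhesion molecules, while EPCAM, VCAM1 and NCAM1 had 0 reads.

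Collagens were led by those of the basement membrane. COL4A1 stood at 251 FPKM (249 to 253) and COL4A2 at 160 (159 to 162), 2 neighbouring genes on chromosome 13 (110148963 to 110307233 and 110305812 to 110513209). The second such pair, COL4A4 at 19.1 (18.5 to 19.7) and COL4A3 at 9.16 (8.72 to 9.61), on chromosome 2, was lower. The network-forming COL8A1 at 87.3 and COL11A1, a minor fibrillar collagen, at 80.8 (79.5 to 82.2) stood above COL1A1 of fibrillar type I collagen at 8.86. Of 44 collagens 16 lay at 1 FPKM or more and 12 had 0 reads, COL6A2 among them, whose partner chain COL6A1 stood at 6.70. The laminin chains LAMC1, LAMB1, LAMB2 and LAMA4 stood at 67.1, 53.6, 50.8 and 29.1 FPKM, and the proteoglycans AGRN and HSPG2 of the same layer at 91.0 and 51.9. Type IV collagens, laminin chains and proteoglycans of the basement membrane were thus listed.

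Glycoproteins around the cell were high. THBS1 (thrombospondin 1) stood at 706 FPKM (702 to 710), LGALS1 (galectin 1) at 707 (696 to 719), whose intervals overlapped, and TGFBI at 588. FN1 (fibronectin) stood at 123 and SRGN (serglycin, a proteoglycan of secretory granules) at 274. The list of matrix crosslinking and collagen processing genes, which also holds hyaluronan enzymes, had 19 of 28 members at 1 FPKM or more. P4HB, a subunit of prolyl hydroxylase, stood at 264, LOX at 246, PLOD2 (lysyl hydroxylase) at 175 and LOXL2 at 111. Among proteases and inhibitors 34 of 69 were listed. MMP14, a membrane-bound collagenase, stood at 130 FPKM (128 to 132) and TIMP2, which binds it, at 137 (135 to 139). MMP9, MMP13 and MMP12 had 0 reads, and MMP9 shared 18.4% of its exon bases.

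Keratins were few and some were high. Of 167 keratins, keratin-associated proteins and other intermediate filament genes 24 lay at 1 FPKM or more (14.4%) and 123 had 0 reads. Among the keratins the 3 highest were KRT80 at 208 FPKM (205 to 211), a keratin of cell margins, KRT8 and KRT18. All 3 lie in the keratin cluster of chromosome 12, KRT80 at 52168996 to 52192000, KRT8 at 52897187 to 52949954 and KRT18 at 52948871 to 52952901. KRT7 stood at 3.23 FPKM and KRT19 at 0.242, both keratins of simple epithelia. In that cluster 6 of 27 genes lay at 1 FPKM or more, as did 10 of 62 in the cluster of chromosome 17. The 49 keratin-associated genes of chromosome 21 had 0 reads. Some of these are near-identical copies of each other, so their zeros are uncertain.

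Hair keratins were listed on both chromosomes, 7 of 17. KRT33B stood at 70.1 FPKM (67.2 to 73.1), KRT34 at 32.9 (31.0 to 34.9) and KRT81 at 24.6 (23.1 to 26.2), and the keratin-associated KRTAP2-3 at 25.9 (23.5 to 28.4). Near-identical copies of several of these exist, among them KRT33A at 0.359, KRT86 at 1.93 and KRTAP2-4 at 3.83, so how reads were divided within each pair is uncertain. Of the other filaments VIM led, the nuclear lamin genes LMNA, LMNB2 and LMNB1 stood at 81.4, 50.6 and 42.7 FPKM, and DES, GFAP and the neurofilament gene NEFH lay under 1. NEFL, another neurofilament gene, had 0 reads.

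**Figure D3:**
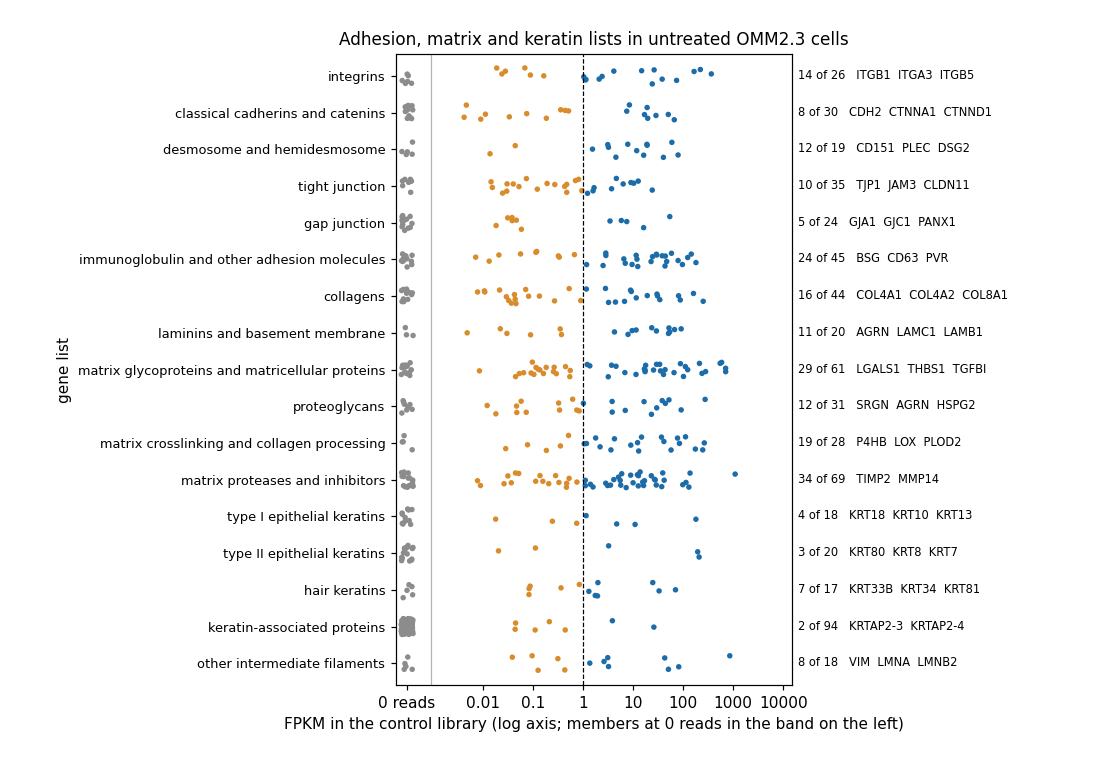
Level of each member of 12 adhesion and matrix lists and 5 keratin and filament lists in the control library, 1 point per gene, in FPKM on a log axis, with blue points at 1 FPKM or more, orange points below and grey points at 0 reads. Of 94 keratin-associated proteins 2 lie right of the dashed line, while 29 of 61 matrix glycoproteins do.

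Several metabolic families had 1 member with most of the summed level. Of 333 members 177 lay at 1 FPKM or more (53.2%, beside 52.7% of all protein-coding genes), and the shares below are of a family's summed FPKM. Among glucose transporters SLC2A1 (GLUT1) led at 118 FPKM (116 to 120) and 87.3% of its family, with SLC2A3 next at 7.89. HK1, the housekeeping hexokinase, held 76.9% at 43.8 FPKM (42.6 to 45.0) and HK2 stood at 11.6. PFKP, the platelet-type phosphofructokinase, held 73.0% at 94.0 FPKM. ENO1 held 91.4% at 581, and ENO2, the neuronal enolase, stood at 54.1. PKM stood at 328 FPKM and PKLR, the liver pyruvate kinase, had 0 reads. LDHA, which turns pyruvate into lactate, held 97.1% at 443 FPKM (439 to 446), against 12.4 (11.5 to 13.4) for LDHB, which shared 33.4% of its exon bases. The lactate exporter SLC16A3 (MCT4) stood at 77.3 FPKM and SLC16A1 (MCT1) at 36.1. PFKFB3, which raises the activator of phosphofructokinase, held 68.9% of its family at 22.4.

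Mitochondrial families ranged from evenly divided to led by 1 member. The adenine nucleotide carriers SLC25A6 and SLC25A5 stood at 194 and 187 FPKM, against 5.51 for SLC25A4, the heart and muscle form. PDK2 and PDK1, kinases that switch off pyruvate dehydrogenase, stood at 5.72 and 5.63, and on reads not scaled for length PDK1 led with 68.0%. PDK2 shared 38.55% of its exon bases. IDH3B, IDH2, IDH3G and IDH1, the isocitrate dehydrogenases, stood at 20.8, 19.3, 11.1 and 10.1. ME3 held 59.2% of the malic enzymes at 15.7 FPKM, but on reads not scaled for length it held 39.1% and ME2 led with 47.0%. UCP2 held 87.7% of the uncoupling proteins at 18.6. PCK2 of the mitochondrion stood at 4.53, and PCK1, the gluconeogenic enzyme of the cytosol, had 0 reads.

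Enzymes of lipid metabolism and of defence against oxidants came next. ACLY, which makes acetyl-CoA from citrate, stood at 47.9 FPKM and FASN (fatty acid synthase) at 23.2. ACSL4, an acyl-CoA synthetase with a liking for polyunsaturated fatty acids, stood at 29.8 (28.8 to 30.8) and held 44.4%. FABP5 held 93.3% of the fatty acid binding proteins at 10.3. CA9, a carbonic anhydrase known as a hypoxia target, stood at 48.0 (45.7 to 50.5) with 38.5% of its exon bases shared. CYP24A1, which breaks down vitamin D, held 66.0% of 55 cytochromes P450 at 53.6 FPKM (51.9 to 55.2), of which 34 had 0 reads. GSTP1 stood at 152, TXNRD1 (thioredoxin reductase) at 167 and PRDX1 (peroxiredoxin) at 142. The aldo-keto reductases AKR1C1, AKR1C2, AKR1C3 and AKR1B10 and the aldehyde dehydrogenase ALDH1A1 had 0 reads.

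**Figure D4:**
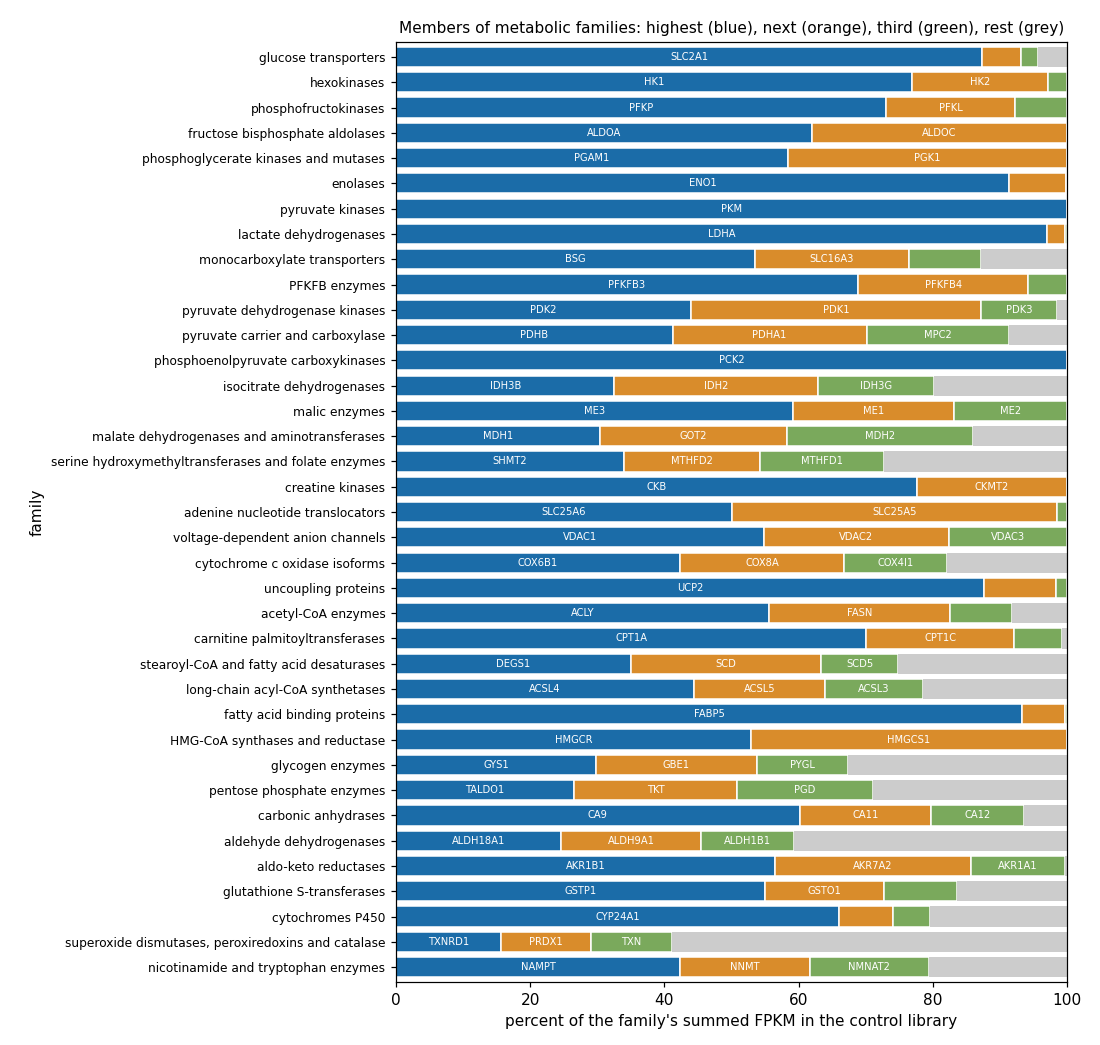
Shares of summed FPKM in each of 37 metabolic families in the control library; each bar runs from 0 to 100 percent, with the highest member in blue, the next in orange, the third in green and the rest in grey. LDHA fills 97.1% of the lactate dehydrogenases and SLC2A1 87.3% of the glucose transporters, while the isocitrate dehydrogenases are divided, with 32.6% for IDH3B.

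Transcription factors numbered 196 of 437 at 1 FPKM or more (44.9%), with a median of 6.68 FPKM. The HOX genes, which set position along the body axis, had no reads. All 39 protein-coding HOX genes had 0 reads, as had 17 other HOX-named genes, and 3 reads stood for 0.0207 to 0.120 FPKM. Of the 39, 34 shared under 50% of their exon bases with another gene and 27 under 20%. HOX partners were listed, with PBX3 at 30.6 FPKM (29.4 to 31.7), PBX2 at 9.21 and MEIS3 at 9.11. Of 83 homeobox and lineage factors outside the HOX clusters 22 lay at 1 FPKM or more, SIX3 and OTX2 among them. FOXD1, a forkhead factor of kidney stroma and retina, stood at 18.8 and GATA6 at 6.004. SOX9 led the SOX factors, above SOX4 at 23.4, and PAX6 and PAX8 (1.57) were the 2 of 9 PAX genes at 1 FPKM or more.

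Within the transcription factor lists, factors that respond to stress and growth signals were the highest. The nuclear receptors were counted apart, with the receptors. HIF1A, the hypoxia factor (chromosome 14, 61695513 to 61748259), stood at 216 FPKM (213 to 219), and its relative EPAS1 at 15.3. ATF4 of the integrated stress response stood at 104 (102 to 107) and NFE2L1 at 67.5. MYC stood at 63.0 (61.0 to 65.0). Of the AP-1 factors JUN stood at 60.5 FPKM (58.7 to 62.4), FOSL1 at 47.6 (45.4 to 49.9), FOSL2 at 47.0 and JUND at 46.6, while FOS lay at 0.159. The ETS repressor ERF stood at 50.7 and ETS1 at 35.5.

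TEAD1, a factor of the Hippo pathway, stood at 31.4 FPKM (30.6 to 32.2) and its coactivators YAP1 and WWTR1 (TAZ) at 22.4 and 15.8, with 8 of 10 genes of the list at 1 FPKM or more. All 14 SMAD and Wnt effectors lay at 1 FPKM or more, led by SMAD3 at 27.3. Of 21 epithelial-mesenchymal factors 7 did, with TWIST1 at 9.10, ZEB1 at 5.38, SNAI1 at 2.50 and ZEB2 at 1.26, while SNAI2 and TWIST2 had 0 reads. TFE3, a relative of MITF that drives lysosome genes, stood at 18.6 FPKM (17.7 to 19.6), above MITF at 8.81. ID1, an inhibitor of basic helix-loop-helix factors, stood at 38.8.

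**Figure D5:**
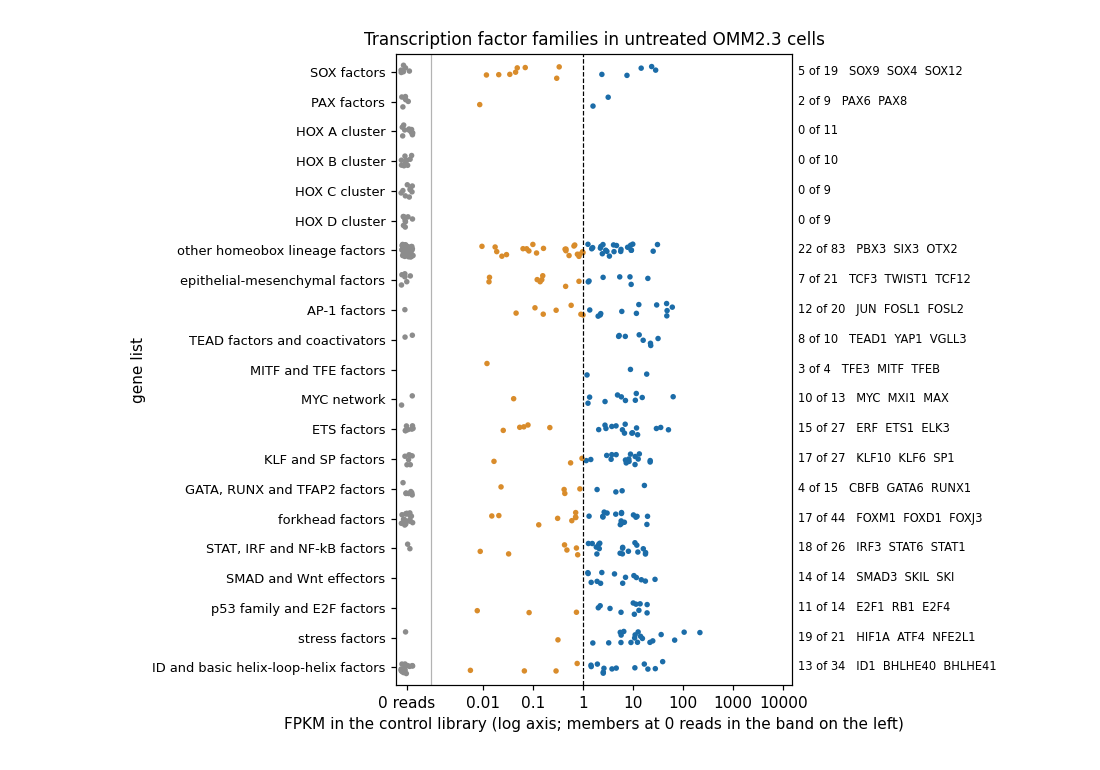
Level of each member of 21 transcription factor lists in the control library, 1 point per gene, in FPKM on a log axis, with blue points at 1 FPKM or more, orange points below and grey points at 0 reads. All members of the 4 HOX clusters lie in the band at 0 reads, and HIF1A at 216 FPKM lies farthest to the right.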

How the data were processed

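RNA was sequenced from OMM2.3 cells in 4 libraries, and the control library alone was used; the CCCP, DHA and combined libraries were left out. Per the labels' protocols, libraries were made with an Illumina TruSeq RNA kit, which does not mark strand. The authors deposited FPKM per gene, per the file headers; aligner, counter and build were not given in the sources used here. Each of 58735 identifiers matched GENCODE 29 (GRCh38), which gave gene types, coordinates and exon lengths. FPKM times summed exon length gave whole reads within a tolerance of 0.01 (largest distance 0.0062), 18937286 in all, which gave exact 95% Poisson intervals and the floor of 3 reads. The arithmetic was tested on simulated data. Promoters came from RefSeq (GRCh38.p14).

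With 1 library there was no test. The members and the 123 lists were chosen with earlier results of these data known. Any list member could be named; described singly were up to 8 of the highest per list, members of metabolic families and members at 0 reads, and outside the lists the 25 protein-coding and 10 noncoding genes of highest FPKM. A few genes are not reported here. Other named genes were chosen after their values were seen. Alternatives were thresholds of 0.5 and 2 FPKM, 10 reads, other lengths and bases for shares, and leaving out overlapping genes. Scripts ran in Python 3.11.15, using scipy 1.17.1 for intervals, pandas 2.3.3 and numpy 2.4.6 for tables, and matplotlib 3.10.9 for figures.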

Additional observations from a re-analysis of the deposited data

How the results depend on the processing

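With 1 library there was no replicate to leave out, and no paired analysis was possible because each group had 1 library. The count of 12282 genes was 14388 at 0.5 FPKM, 10110 at 2 FPKM and 11917 with 10 reads required, all within 1.5 times. The counts of the 8 themes stayed within 1.5 times at both thresholds, and also without members sharing 50% of their exon bases, an alternative chosen after seeing the data. Without members overlapping a gene on the other strand, which leaves fewer genes, counts fell to 54 for lineage, 106 for receptors, 118 for adhesion and matrix, 15 for keratins, 107 for metabolism, 120 for transcription factors and 120 for the whole program of translation, cytoskeleton and folding genes. With protein-coding genes outside the mitochondrion as the base, the highest 10, 100 and 1000 genes held 10.4, 27.6 and 59.9% of summed FPKM, and ribosomal proteins, actin cytoskeleton and translation factors moved from 7.43, 5.32 and 1.57% to 9.89, 7.08 and 2.09%. Of 38 metabolic families, 36 had the same leading member per length of the longest transcript and 27 on reads not scaled for length. PDK1 passed PDK2 on reads, as CA12 passed CA9 and ME2 passed ME3, and SLC25A5 passed SLC25A6 per longest transcript. Depth sets the floor for absent genes, and overlap with other genes limits what a low value can show.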

Other observations

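Noncoding genes, which no list covered, made up a small part of the library, and those named here were chosen after their values were seen. Of 773 long noncoding genes at 1 FPKM or more, LINC02009 stood highest at 142 FPKM (139 to 145.1), followed by NORAD, which binds Pumilio proteins, at 126 (124 to 129). NEAT1, the scaffold of nuclear paraspeckles, stood at 47.6 FPKM and MALAT1, a nuclear RNA, at 39.8. GAS5, SNHG5 and SNHG6, hosts of small nucleolar RNAs, stood at 47.0, 60.6 and 47.2 FPKM. H19 and MEG3, imprinted noncoding genes, and HOTAIR of the HOXC cluster had 0 reads.

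Pseudogenes included high values. TMSB4XP8 stood at 575 FPKM and RPL9P9 at 569, beside 1309 for the parent gene TMSB4X. Reads of a gene and its near-identical copies cannot be told apart reliably in such counts.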
